A study of Mus musculus with 24 samples.

Results

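Importins carry proteins into the cell nucleus. Described here are 7 genes of this system in mouse embryonic fibroblasts, chosen by name among the 41710 genes of the deposited tables: the importin alpha genes Kpna1, Kpna2, Kpna3, Kpna4 and Kpna6, the importin beta gene Kpnb1, and Gm10184, a near-identical copy of Kpna2. Each was followed through WT, MlxKO, MycKO and double knockout (DKO) cells, in primary and in immortalized cultures. Because Kpna2 and Gm10184 share most of their transcript, their rows were also added together, and this value is called the Kpna2 sum.

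An importin alpha binds the basic localization signal of a cargo protein and, at the same time, importin beta, which takes the complex through the nuclear pore. In the nucleus, Ran bound to GTP binds importin beta and releases the cargo, and the exportin Cse1l returns importin alpha to the cytoplasm. The importin alpha genes fall into subfamilies with overlapping cargoes. Kpna2 is the member best known for high levels in dividing cells. Myc and Mlx belong to related groups of transcription factors that bind E-box sequences, and Myc drives growth and division in fibroblasts.

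The cells came from embryos between E14 and E16 that carried floxed alleles of Myc, of Mlx or of both, together with the ROSA26-CreER transgene, a Cre recombinase expressed from the ubiquitous ROSA26 promoter and activated by 500 nM 4-hydroxytamoxifen. Each culture was a pool of several embryos, and the immortalized cells carried in addition SV40 T-antigen from a lentivirus. MycKO cells had lost Myc, MlxKO cells Mlx, and DKO cells both. The labels do not say which floxed line the WT cells came from, so that genotype and line of origin cannot be told apart. The authors describe exposure to 4-hydroxytamoxifen or to ethanol vehicle alone, and immortalized WT controls that were kept without the drug. In contrasts with WT, gene loss thus cannot be told apart from exposure to the drug and active Cre. There were 3 libraries for each of the 8 groups, and as nothing says that they came from separate derivations, p-values measure only the spread between these libraries.

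The targeted transcripts fitted the labels in direction. Myc lay between 89.8 and 100.1 CPM in primary WT and between 25.8 and 26.8 CPM in MycKO cells, and Mlx fell by 0.76 on the log2 scale in primary MlxKO cells (adjusted p = 0.000403, limma with Benjamini-Hochberg adjustment). In immortalized cells Myc was at most 17.2 CPM in MycKO and 8.02 CPM in DKO libraries, against at least 39.9 CPM in WT. Mlx there had means of 23.03 CPM in WT, 13.85 CPM in MlxKO and 16.76 CPM in DKO cells. Its log2 difference of -0.44 between immortalized DKO and WT cells was not called by limma. All 8 fibroblast markers were present in both tables, but their levels differed between genotypes. In immortalized MycKO against WT their log2 fold changes ran from -2.3 to 4.2, and in primary cells from -0.65 to 1.08. The summed level of the 6 macrophage markers moved with Myc in primary cells, from between 86.9 and 159.9 CPM in WT and between 94.0 and 110.3 CPM in MlxKO to between 14.5 and 17.4 CPM in MycKO and between 26.4 and 59.0 CPM in DKO cells. In immortalized cells 2 of these 6 were at 0 and the sum did not exceed 5.74 CPM. Cdh5 and Pecam1, defining endothelial markers, and Epcam, an epithelial marker, stayed under 1 CPM in all 24 libraries. The 4 epithelial markers together reached 16.1 to 19.3 CPM in primary WT and at most 4.37 CPM in the other primary genotypes, and the 4 endothelial markers at least 13.5 and at most 7.98 CPM. In immortalized cells the 4 endothelial markers together lay between 14.37 and 19.08 CPM in MycKO, above all libraries of the other genotypes. In WT their sum lay between 3.104 and 5.049 CPM. Of the 2 tested there, 1 was called higher in MycKO against WT, with a log2 fold change of 2.21 (limma). The sum of the 4 epithelial markers in immortalized cells did not exceed 5.915 CPM, a value reached in WT. Replicate 3 of the immortalized WT cells stood apart, with 177.5 CPM of Myc against 48.1 and 39.9 CPM in the other WT libraries, and importin results that lose or gain a call without it are given both ways.

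Kpna2 (ENSMUSG00000018362) lies on the minus strand of chromosome 11 of GRCm39 (chr11:106879455-106890367) and has 11 exons. Gm10184 (ENSMUSG00000066878), which GENCODE vM39 now names Kpna2rt and lists as protein-coding, is a single-exon copy on the minus strand of chromosome 17 (chr17:90215890-90217877). Along 1968 aligned bases they differed at 2, both in exon 7 of Kpna2 and 45 bases apart. Counted from the first base of the start codon, these substitutions were A696G and C741T, with the base of Kpna2 first. Each fell on base 3 of its codon, 232 and 247, and left the amino acid as it was, so that none of the 529 residues differed. The stretch is printed because a read that covers neither base cannot be placed within the aligned part. It spans coding bases 673 to 762, and capitals mark the distinguishing bases.
Kpna2, chr11:106882063-106882152: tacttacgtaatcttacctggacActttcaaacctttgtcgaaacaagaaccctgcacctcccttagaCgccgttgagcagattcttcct
Gm10184, chr17:90216983-90217072: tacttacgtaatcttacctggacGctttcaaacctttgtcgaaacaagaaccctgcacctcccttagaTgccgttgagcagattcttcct

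Of the 1919 stretches of 50 bases in the aligned part, 95 (4.95%) held a distinguishing base. Of all distinct 50-base stretches of the canonical Kpna2 transcript, 90.97% also occurred in Gm10184, and 94.07% of those of Gm10184 occurred in a Kpna2 transcript. The canonical Kpna2 transcript runs 80 bases further at its 5′ end. The canonical transcripts of the other members had almost nothing in common with other genes, with 0.1% of stretches shared for Kpna4 and none for Kpna1, Kpna3, Kpna6 and Kpnb1. In the genome, 9 copies of Kpna2 on other chromosomes aligned over at least 1000 bases with at least 90% identity, and Gm10184 is the only copy among them that was analysed here. The next closest, the processed pseudogene Gm10259 on chromosome 3, had 5 differences from Kpna2, among them the same A696G and C741T.

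Nearly all reads of the pair lay in the Gm10184 row in WT, MlxKO and DKO cells, and nearly all in the Kpna2 row in MycKO cells. The values of both rows prompted the choice of these genes and are given as a description, with no test. In primary cells the Kpna2 row held 1.92, 2.23 and 2.63 CPM in the WT libraries, 1.01, 1.56 and 2.88 CPM in MlxKO, 154.6, 205.1 and 157.4 CPM in MycKO, and 2.15, 1.53 and 2.71 CPM in DKO libraries. The Gm10184 row held 242.2, 230.1 and 263.2 CPM in WT, 217.2, 235.2 and 240.6 CPM in MlxKO, 0.832, 0.458 and 2.04 CPM in MycKO, and 138.2, 145.8 and 127.9 CPM in DKO libraries. Each MycKO library was thus high in the first row and low in the second, and no library of another genotype came near it.

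The immortalized cells showed the same split. There the Kpna2 row held 5.04, 4.83 and 4.02 CPM in WT, 3.53, 3.75 and 2.45 CPM in MlxKO, 305.3, 300.2 and 311.0 CPM in MycKO, and 3.41, 3.28 and 5.30 CPM in DKO libraries. The Gm10184 row held 342.0, 283.4 and 495.6 CPM in WT, 279.8, 234.5 and 257.4 CPM in MlxKO, 6.44, 1.15 and 4.67 CPM in MycKO, and 289.9, 352.8 and 357.0 CPM in DKO libraries. Again the MycKO libraries did not overlap those of any other genotype in either row.

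As a share of the reads of the pair, Kpna2 took 99.5%, 99.8% and 98.7% in the primary MycKO libraries, with the widest exact 95% binomial interval from 98.3% to 99.1% in replicate 3. In the immortalized MycKO libraries it took 97.9%, 99.6% and 98.5%. In the other 18 libraries of both tables the share lay between 0.464% and 2.07%, and no upper bound of an interval passed 2.75%. These intervals cover counting error only. DKO cells, which lack Myc as MycKO cells do, had shares between 1.04% and 2.07% in primary and between 0.921% and 1.46% in immortalized cultures. The reads behind Gm10184 numbered between 7 and 41 in primary and between 21 and 126 in immortalized MycKO libraries. The split was thus seen in MycKO and not in DKO cells. The part of read placement in it was not tested. A difference between the lines of origin and the loss of Myc in cells that keep Mlx cannot be told apart.

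**Figure D1:**
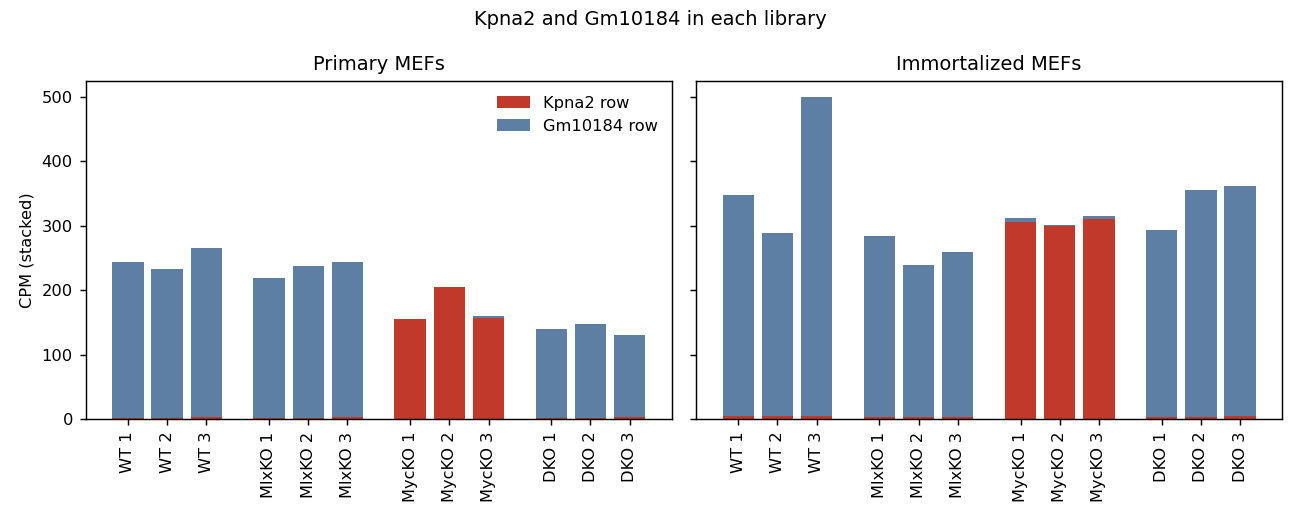
Stacked bars give the CPM of the Kpna2 row and of the Gm10184 row in each of the 12 primary and 12 immortalized libraries, by genotype and replicate. The Kpna2 row makes up nearly the whole bar in the 6 MycKO libraries and at most 2.07% of it in the other 18.

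The Kpna2 sum, which does not depend on how reads were divided between the rows, was lower in primary cells without Myc. It was 244.1, 232.3 and 265.8 CPM in the WT libraries and 218.2, 236.8 and 243.5 CPM in MlxKO libraries, against 155.4, 205.6 and 159.4 CPM in MycKO and 140.3, 147.3 and 130.6 CPM in DKO libraries. The MycKO and DKO libraries lay below all WT and MlxKO libraries, and MlxKO and WT libraries overlapped. On the log2 scale of CPM + 1 the difference was -0.52 between MycKO and WT and -0.74 between DKO and MlxKO cells, a pair of contrasts with no library in common. An earlier result on the sum in MycKO cells entered the choice of genes, so no test is given for the primary sum. Reads placed on other copies, such as Gm10259, are not part of the sum, and whether their number differs between genotypes was not tested. In bulk RNA, fewer cells of a kind and less RNA per cell cannot be told apart.

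Kpnb1, the importin beta that partners all importin alphas, fell with Myc loss in primary cells. Its libraries held 723.9, 752.2 and 730.4 CPM in WT, 717.5, 764.9 and 740.7 CPM in MlxKO, 599.3, 685.3 and 599.0 CPM in MycKO, and 555.7, 543.5 and 537.4 CPM in DKO cells. The DKO libraries were the lowest, followed by MycKO, and neither overlapped WT or MlxKO. The log2 fold change was -0.23 ± 0.06 (SE) in MycKO against WT (adjusted p = 0.00586, limma) and -0.44 ± 0.06 in DKO against MlxKO cells (adjusted p = 1.81e-05, limma). DKO cells were also lower than MycKO cells, by -0.20 ± 0.06 (adjusted p = 0.0265, limma), a call that was lost when any DKO library or MycKO replicate 2 was left out, with adjusted p then between 0.0568 and 0.0946.

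Kpna3, an importin alpha of the same subfamily as Kpna4, showed the largest tested decrease among the members. It was at 103.8, 102.8 and 117.6 CPM in WT, 105.2, 108.7 and 110.6 CPM in MlxKO, 76.8, 91.1 and 71.4 CPM in MycKO, and 75.9, 74.0 and 72.6 CPM in DKO libraries. All libraries without Myc were below all those with it. The log2 fold change was -0.44 ± 0.08 in MycKO against WT (adjusted p = 0.000347, limma) and -0.54 ± 0.08 in DKO against MlxKO cells (adjusted p = 4.11e-05, limma). Between DKO and MycKO cells the difference was -0.10, with a 95% interval from -0.27 to 0.07 (adjusted p = 0.448, limma).

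Kpna4 was at 159.1, 155.2 and 164.9 CPM in primary WT, 152.5, 162.8 and 158.0 CPM in MlxKO, 132.7, 166.7 and 135.6 CPM in MycKO, and 138.9, 135.6 and 122.8 CPM in DKO libraries. MycKO replicate 2 reached the WT level while the other MycKO libraries did not, and the log2 difference of -0.15 did not pass the test (adjusted p = 0.150, limma). Without that replicate it was -0.25 (adjusted p = 0.0026, limma). In DKO cells Kpna4 fell by 0.25 ± 0.08 on the log2 scale relative to MlxKO cells (adjusted p = 0.0142, limma), which was lost without DKO replicate 3 (adjusted p = 0.0790) or MlxKO replicate 2 (adjusted p = 0.0542).

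Kpna1 and Kpna6, which share a subfamily, were not called in any primary contrast of the main analysis. Kpna1 lay between 75.4 and 88.6 CPM and Kpna6 between 114.5 and 131.0 CPM over the 12 primary libraries. For MycKO against WT the log2 difference was -0.08 for Kpna1, with a 95% interval from -0.22 to 0.05, and -0.00158 for Kpna6, from -0.12 to 0.12. The 3 DKO libraries of Kpna6, at 114.6, 114.5 and 114.8 CPM, were below all others, and the log2 difference from MlxKO cells of -0.11 did not pass the test (adjusted p = 0.105, limma). Without MlxKO replicate 3 it passed at -0.15 (adjusted p = 0.0427, limma). With only the groups compared, Kpna6 also passed in DKO against WT, at -0.12 (adjusted p = 0.0464, limma).

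Of the 5 members tested in primary cells, 2 fell in MycKO against WT, where 42.3% of all genes tested were called in either direction and 21.9% as lower. The same 2 had libraries that did not overlap, as did 48.1% of all genes. In DKO against MlxKO 3 of 5 fell, where 49.1% of all genes were called and 25.9% as lower, and 4 of 5 did not overlap, against 60.9% of all genes. Scaled by library totals, which moved the median of all genes to -0.09 and -0.12, 4 of 5 were called lower in MycKO against WT and all 5 in DKO against MlxKO. Under that scaling 5902 of all 13100 genes were called in MycKO against WT, of which 31.4% were higher and the rest lower. In DKO against MlxKO 6850 genes were called, of which 32.4% were higher. DKO against WT gave the same 3 genes, with log2 fold changes of -0.53 for Kpna3, -0.43 for Kpnb1 and -0.27 for Kpna4 (-0.22 and no longer called without DKO replicate 3, adjusted p = 0.0561, limma), with 49.5% of all genes called and 25.5% as lower. With DKO against MycKO 1 of 5 was called (21.5% of all genes, 11% as lower). None of the 5 was called by limma in MlxKO against WT (8.89% of all genes) or for the Myc-by-Mlx interaction (13.5% of all genes), and in both edgeR and DESeq2 gave 0 as well. At an unadjusted p under 0.05 these counts were 0 and 1, the latter for Kpnb1 with an interaction of -0.21.

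In immortalized cells no importin gene was called in MycKO against WT by limma, edgeR or DESeq2, or by limma at an unadjusted p under 0.05, where 47.9% of all genes were called. The Kpna2 sum, which was tested here, held 347.0, 288.2 and 499.6 CPM in WT, 283.3, 238.2 and 259.9 CPM in MlxKO, 311.7, 301.3 and 315.7 CPM in MycKO, and 293.3, 356.1 and 362.3 CPM in DKO libraries. WT replicate 3 was far above the rest, and the MycKO libraries lay within the range of the other WT libraries. The log2 difference between MycKO and WT was -0.25 (adjusted p = 0.243, limma), and without WT replicate 3 it was -0.03, while without WT replicate 2 it passed at -0.43 (adjusted p = 0.0442, limma). Kpnb1 was at 759.2, 671.5 and 1137 CPM in WT and 724.2, 946.7 and 930.9 CPM in MycKO libraries, which overlapped, and its log2 difference was 0.05, with a 95% interval from -0.34 to 0.43, and 0.27 without WT replicate 3 (adjusted p = 0.0856, limma). Kpna4 differed by 0.09, and without WT replicate 3 it was higher in MycKO cells by 0.38 (adjusted p = 0.0356, limma).

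In immortalized MlxKO against WT cells 3 of 6 members were called, all lower, where 38.9% of all genes were called and 19.9% as lower. Kpna3 was at 129.0, 95.7 and 114.8 CPM in MlxKO against 178.3, 137.7 and 221.6 CPM in WT libraries, which is -0.64 ± 0.17 on the log2 scale (adjusted p = 0.0129, limma). Kpna1 was at 90.2, 72.4 and 79.2 CPM in MlxKO against 118.4, 91.3 and 149.2 CPM in WT libraries, a change of -0.54 ± 0.16 (adjusted p = 0.0190, limma). The Kpna2 sum changed by -0.50 ± 0.17 (adjusted p = 0.0343, limma). For each of these 3, and for 49.1% of all genes, the libraries of both groups did not overlap. Whether these effects differ between primary and immortalized cells was not tested.

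Without WT replicate 3 the changes in MlxKO cells were smaller, -0.48 for Kpna3 (adjusted p = 0.0230, limma), -0.37 for Kpna1 (adjusted p = 0.0385, limma) and -0.28 for the Kpna2 sum (adjusted p = 0.0736, limma). Leaving out MlxKO replicate 2 ended all 3 calls, with log2 differences of -0.53 for Kpna3, -0.47 for Kpna1 and -0.44 for the sum (adjusted p = 0.0665, 0.0829 and 0.124, limma). The calls on Kpna1 and the sum were also lost without MlxKO replicate 3 (adjusted p = 0.0593 and 0.0866) or WT replicate 1 (adjusted p = 0.0527 and 0.0596), while without WT replicate 2 Kpnb1 and Kpna4 joined and 5 members were called. Scaled by library totals, where the median of all genes rose to 0.16, only Kpna3 was called. Among all genes 5256 were then called, of which 69.8% were higher.

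Neither contrast of DKO cells with another knockout gave a called member in immortalized cells, where 30.1% of all genes were called against MlxKO and 29.4% against MycKO, and DKO against WT gave none of 6 (18.9% of all genes). In these 3 contrasts edgeR and DESeq2 gave 0 as well, and limma gave 0 at an unadjusted p under 0.05. Without WT replicate 2, Kpna1 and Kpna3 were called in DKO against WT, at -0.46 and -0.49 (adjusted p = 0.0352 and 0.0464, limma), and without WT replicate 3 Kpna4 in DKO against MycKO, at -0.36 (adjusted p = 0.0330, limma). The Kpna2 sum was 0.37 higher in DKO than in MlxKO cells (95% interval -0.00106 to 0.74, adjusted p = 0.120, limma), and without WT replicate 3 in the shared fit it passed the test (adjusted p = 0.0152). Its libraries and those of Kpnb1 did not overlap in that contrast, nor did those of 54.4% of all genes. The interaction of Myc and Mlx loss on the sum was 0.62 (adjusted p = 0.0505, limma), against adjusted p = 0.0476 in edgeR and 0.0289 in DESeq2, where 47.4% of all genes were called by limma. Without WT replicate 3 it was 0.40 (adjusted p = 0.0524, limma). Without WT replicate 2 it was 0.80 (adjusted p = 0.00982, limma) and without DKO replicate 1 it was 0.72 (adjusted p = 0.0383, limma), and without WT replicate 2 Kpna1 and Kpna3 joined it at 0.62 and 0.61 (adjusted p = 0.0194 and 0.0386, limma). Kpna6 was level in every immortalized contrast with 2 groups, with log2 differences between -0.06 and 0.01.

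**Figure D2:**
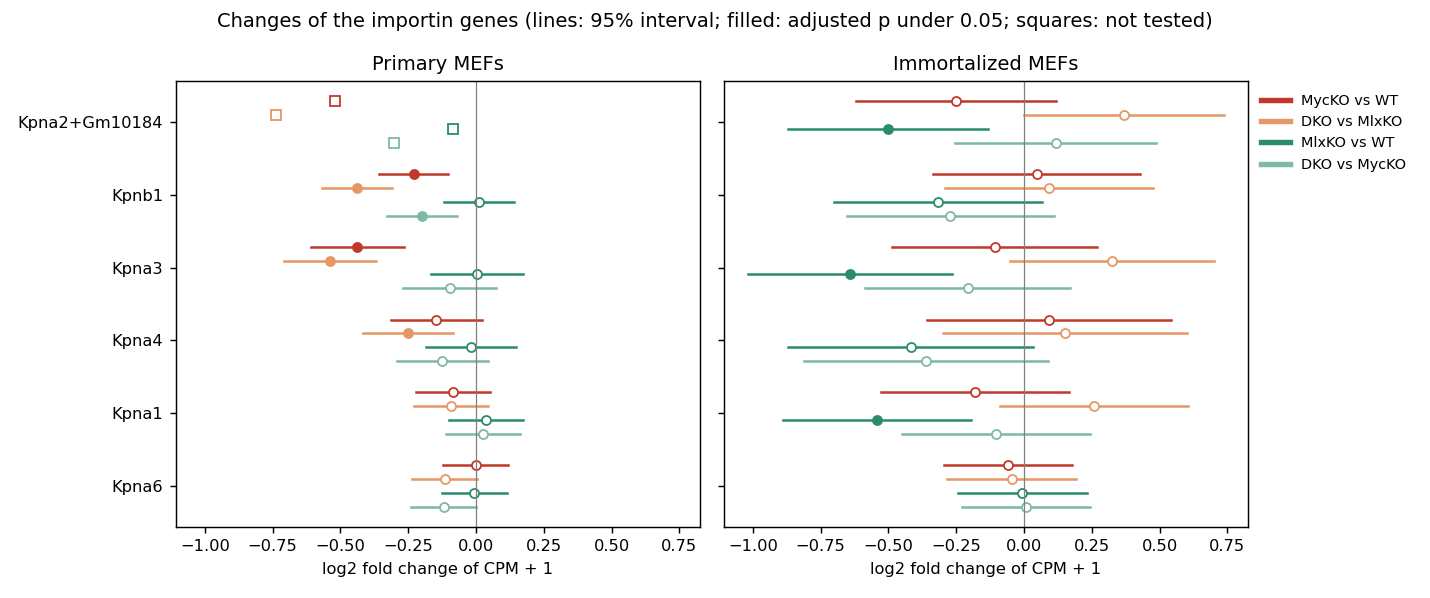
Points give the log2 fold change of CPM + 1 of the Kpna2 sum and 5 importin genes for MycKO against WT, DKO against MlxKO, MlxKO against WT and DKO against MycKO, in primary (left) and immortalized (right) MEFs, with 95% intervals as lines, filled where the adjusted p was under 0.05 and square where no test was made. In primary cells the called points belong to the contrasts in which Myc was lost, and to DKO against MycKO for Kpnb1, while in immortalized cells they belong to MlxKO against WT.

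Set per kilobase of merged exons, so that genes can be compared, Kpnb1 was at 106.9 ± 2.15 CPM per kb (SD, n = 3) in primary WT cells. The Kpna2 sum was at 70.3 ± 4.82, with the 3519 bases of Kpna2 used for both rows. Nearly all its reads in WT lay in the Gm10184 row, whose transcript has 1988 bases. With that shorter length the sum would be higher, so the order of Kpnb1 and the sum is not settled. Kpna3 at 18.3 ± 1.41 and Kpna6 at 18.2 ± 0.463 overlapped, and Kpna4 at 12.2 ± 0.371 and Kpna1 at 6.59 ± 0.307 CPM per kb came last. Kpna7, the importin alpha of oocytes and early embryos, stayed under 1 CPM in all libraries. With the length of the longest transcript in place of merged exons, Kpna6 at 21.9 ± 0.556 stood above Kpna3 at 19.1 ± 1.46 and Kpna4 at 18.1 ± 0.550 CPM per kb, which overlapped, and the other places were as before. In immortalized WT cells the Kpnb1 level of 124.4 ± 36.0 and the Kpna2 sum of 107.5 ± 31.0 CPM per kb overlapped. With the longest transcript their order turned there, to 141.7 ± 41.0 for Kpnb1 and 156.5 ± 45.1 for the sum, and in DKO cells to 118.1 ± 4.07 and 139.5 ± 15.8 CPM per kb. Across the genotypes of both tables Kpnb1 and the Kpna2 sum held the first 2 places and Kpna1 the last by either length.

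Because the Kpna2 sum and Kpnb1 moved together in primary cells, the 250 bases before their annotated starts were searched on both strands for CACGTG, the core E-box that Myc can bind, and for CCAAT and TTTGAA, motifs found in promoters of cell cycle genes. CACGTG was in none of the windows of the 7 members, and in 6.26% of the windows of 21770 protein-coding genes. The Kpna2 window held a TTTGAA on the opposite strand 19 bases and a CCAAT 9 bases before the start, where 15.6% and 36.5% of all windows hold them. Kpnb1 had 5 matches to CCAAT and Kpna4 had 2, whereas Kpna1, Kpna3, Kpna6 and Gm10184 had none of the 3 motifs. A match is a description of letters only. The windows of the gene and of its copy are printed, with matches in capitals, because both lie outside the aligned part, so that Gm10184 has another sequence before its start than Kpna2.
Kpna2, chr11:106890368-106890617, minus strand: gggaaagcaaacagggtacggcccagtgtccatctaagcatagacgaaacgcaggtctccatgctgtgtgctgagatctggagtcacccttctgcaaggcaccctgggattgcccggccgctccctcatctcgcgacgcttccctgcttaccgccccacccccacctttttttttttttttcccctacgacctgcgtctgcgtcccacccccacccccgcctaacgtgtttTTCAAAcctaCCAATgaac
Gm10184, chr17:90217878-90218127, minus strand: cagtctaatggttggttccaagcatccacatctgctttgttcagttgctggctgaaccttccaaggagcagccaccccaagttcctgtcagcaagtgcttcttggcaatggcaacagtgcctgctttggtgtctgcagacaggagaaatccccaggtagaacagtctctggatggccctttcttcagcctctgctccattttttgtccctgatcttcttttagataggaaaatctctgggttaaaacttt

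Of the 11 transport genes named by role, 10 fell in primary MycKO against WT cells, where 21.9% of all genes were called as lower. These genes, and the lists counted below, were chosen with earlier results of these data known. The counts therefore cannot show that transport genes stand out. Among the Ran cycle genes, Ran, the GTPase that gives transport its direction, went from 485.5 ± 17.3 CPM in WT to 313.1 ± 8.42 in MycKO cells (SD, n = 3), which is -0.63 ± 0.06 on the log2 scale (SE, adjusted p = 7.83e-07, limma). Rcc1, its exchange factor in the nucleus, changed by -0.78 (adjusted p = 6.67e-07, limma) from 47.1 ± 2.26 to 27.1 ± 1.69 CPM. Ranbp1 and Rangap1, which promote GTP hydrolysis by Ran in the cytoplasm, changed by -0.54 (adjusted p = 8.54e-05, limma) and -0.34 (adjusted p = 0.00336, limma). Nutf2, which brings Ran back into the nucleus, was low, with group means between 3.99 and 6.54 CPM, and its difference of 0.21 did not pass (adjusted p = 0.695, limma). DKO against MlxKO gave -0.79 for Ran, -0.93 for Rcc1, -0.61 for Ranbp1 and -0.36 for Rangap1, each past the threshold.

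Cse1l, the export receptor of importin alpha, fell from 146.4 ± 10.2 to 95.1 ± 18.4 CPM in primary MycKO cells, or -0.63 ± 0.11 on the log2 scale (adjusted p = 0.000165, limma), and by -0.78 in DKO against MlxKO cells (adjusted p = 1.78e-05, limma). Xpo1, the exporter of proteins with leucine-rich signals, changed by -0.58 and -0.70 in the same contrasts (adjusted p = 0.000199 and 3.04e-05, limma). Ipo5 and Ipo7, which import ribosomal proteins among other cargoes, changed by -0.50 and -0.32 in MycKO cells (adjusted p = 3.43e-05 and 0.0046, limma), and Tnpo1, the receptor of many RNA-binding proteins, by -0.28 (adjusted p = 0.0228, limma). Nup50, a nucleoporin that helps to free cargo from importin alpha, changed by -0.27 (adjusted p = 0.00266, limma). Of these 6 genes, Nup50 was not called in DKO against MlxKO, where its difference was -0.11 (adjusted p = 0.181, limma).

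Counted by list in primary MycKO against WT, 5 of 7 exportins, 4 of 8 Ran cycle genes, 19 of 27 nucleoporins and 5 of 11 other import receptors were lower, and no gene of these lists was higher, where 21.9% of all genes were lower. At an unadjusted p under 0.05, 1 import receptor was higher, and 1 was called higher without MycKO replicate 2 or MlxKO replicate 3. In order, the list medians were -0.34, -0.26, -0.29 and -0.13, against 0.000196 over all 13100 genes. In DKO against MlxKO the lower genes numbered 6 of 7, 5 of 8, 21 of 27 and 7 of 11, again with none higher, where 25.9% of all genes were lower, and without MycKO replicate 2 there was 1 import receptor higher. In MlxKO against WT the lists gave 0 of 7 exportins lower and 1 higher, 1 of 8 Ran cycle genes and 1 of 27 nucleoporins lower, and none of 11 other import receptors in either direction (limma, also none at an unadjusted p under 0.05), where 5.14% of all genes were lower and 3.75% higher. With a library left out, exportins gave 0 or 1 higher, Ran cycle genes 0 to 2 lower and nucleoporins 0 to 5 lower. Of the 10 mitotic genes, all 10 were lower in MycKO against WT, with a median of -0.68, and all 10 in DKO against MlxKO, with -0.60, and 8 were lower in MlxKO against WT, with -0.34 (5 to 9 with a library left out). Their summed level was between 1115 and 1157 CPM in WT, 870.3 and 916.9 in MlxKO, 682.9 and 839.7 in MycKO and 555.1 and 593.3 CPM in DKO cells. Their part, and that of the macrophage markers, in the importin results was not tested.

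The counts in immortalized cells depended on single libraries. In MycKO against WT, where 24.4% of all genes were higher and 23.5% lower, 5 of 7 exportins and 3 of 11 other import receptors were lower with none higher, 3 of 8 Ran cycle genes were higher and 1 lower, and 2 of 28 nucleoporins were higher and 6 lower. Without WT replicate 3, where 27.3% of all genes were higher and 26.7% lower, 3 exportins were lower, 1 import receptor was higher and 3 lower, 5 Ran cycle genes were higher and 1 lower, and 5 nucleoporins were higher and 3 lower. Without MycKO replicate 1 the counts fell to 3 exportins lower, 2 Ran cycle genes higher, and 2 nucleoporins higher and 2 lower, and without WT replicate 1 to 1 Ran cycle gene higher. Without WT replicate 2, 5 import receptors were lower. Of the mitotic genes 1 of 10 was higher and none lower, with a median of 0.14, but 6 were higher without WT replicate 3, with a median of 0.33, and 0 were higher without WT replicate 1 or MycKO replicate 2.

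Among the genes named by role, Ranbp1 and Rangap1 rose in immortalized MycKO against WT by 0.47 and 0.70 (adjusted p = 0.0178 and 0.0108, limma), and without WT replicate 3 by 0.62 and 0.98. Rcc1, at 0.27 with all libraries (adjusted p = 0.387, limma), passed without that library at 0.61 (adjusted p = 0.00446, limma). Xpo1 and Tnpo1 changed by -0.48 and -0.63 (adjusted p = 0.0317 and 0.0135, limma), and without WT replicate 3 by -0.30 (adjusted p = 0.0849) and -0.40 (adjusted p = 0.0214).

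In immortalized MlxKO against WT, where Kpna1, Kpna3 and the Kpna2 sum were lower, 38.9% of all genes were called, 19.9% as lower. There 4 of 7 exportins were lower, and 5 of 11 other import receptors were lower and 1 higher. Of 8 Ran cycle genes 2 were higher and 1 lower, of 28 nucleoporins 3 were higher and 5 lower, and of 10 mitotic genes 1 was higher and 1 lower. Without WT replicate 3, 23.1% of all genes were higher and 23.8% lower. The Ran cycle then gave 4 higher and 1 lower, the nucleoporins 8 higher and 3 lower, and the mitotic genes 3 higher and 1 lower. The exportins gave 3 lower and the import receptors 2 higher and 5 lower. Leaving out MlxKO replicate 2 or 3 left 2 exportins lower, and over all libraries left out in turn the import receptors gave 0 to 2 higher and 3 to 6 lower and the nucleoporins 2 to 8 higher and 2 to 9 lower. Ipo5, Ipo7, Tnpo1 and Xpo1 were among the lower genes, with log2 fold changes of -0.61, -0.68, -0.77 and -0.58, and without WT replicate 3 of -0.46, -0.37, -0.54 and -0.40, each still past the threshold. Rangap1 rose by 0.74 (adjusted p = 0.0104, limma), and by 1.03 without that library.

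The genes whose levels ran most like the members were ranked by Pearson r of log2(CPM + 1) over the 12 libraries of a table, as a description without p, since the libraries of a genotype share their differences. For the Kpna2 sum these were, in primary cells, Tuba1b, an alpha tubulin (r = 0.996), Farsb, a subunit of the phenylalanine tRNA synthetase (0.995), and Nap1l1, a histone chaperone (0.993), among 9046 genes. Kpnb1 itself reached 0.972 with the sum. In immortalized cells they were Hsp90aa1, a stress-inducible chaperone (0.983), Cip2a, an inhibitor of the phosphatase PP2A (0.977), and Klf3, a transcription factor (0.973), and Kpnb1 reached 0.686. Most like Kpnb1 were Ppp2r1b (0.990), Naa50 (0.989) and Cyb5b (0.988) in primary and Ubqln1 (0.990), Raph1 (0.974) and Oxsr1 (0.965) in immortalized cells. None of these genes was among the first 3 in both tables.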

How the data were processed

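RNA of triplicate samples of each group was poly-A selected, made into directional libraries and sequenced on an Illumina instrument, and CLC Genomics Workbench was used by the authors for mapping, with GRCm39 as genome. Their deposited signal is headed CPM and comes as a table each for primary and immortalized MEFs, with 41710 genes in 12 libraries per table. Column sums differed (950106 to 1051865 in primary, 915691 to 1077213 in immortalized cells), so the deposited signal was taken as already scaled. Of the nonzero values, 100.0% were whole multiples of what 1 read is worth, within 0.01 reads, which gave between 15986856 and 20966163 reads on genes per library and placed 3 reads at 0.145 to 0.196 CPM. How the authors' counting divided reads between copies is not given in the sources used here.

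Log2(CPM + 1) was fitted with limma 3.58.1 (R 4.3.3), with the 4 groups of a table together and a mean trend in the variance prior. Tested were genes that reached 1 CPM in 3 or more libraries, 13100 in primary and 12879 in immortalized cells, and all 7 members passed. The rows of Kpna2 and Gm10184 were replaced by their sum. The threshold was a Benjamini-Hochberg adjusted p of 0.05 over all genes tested. edgeR 4.0.16 and DESeq2 1.42.0 were run on the recovered reads as alternatives, and called 5565 and 5585 genes in primary MycKO against WT where limma called 5540. Further alternatives were other scalings, filters and pseudocounts, only the groups compared, and each library left out. The tests were tried on simulated data. Tables were never tested against each other. Copies were located with BLAST 2.17.0 in GRCm39 with GENCODE vM39, in which 41181 of the 41710 genes were found. Exact binomial intervals used scipy 1.17.1, and figures matplotlib 3.10.9.

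Members and lists were chosen with earlier results of these data known. Named were the members, 11 transport genes by role (Cse1l, Ran, Rcc1, Rangap1, Ranbp1, Nutf2, Xpo1, Ipo5, Ipo7, Tnpo1 and Nup50), Myc and Mlx as a check, and the 3 genes most like the sum and Kpnb1 with a mean of at least 10 CPM, leaving out predicted genes. Other genes were counted by list. Kpna7 and single markers were named after their values were seen.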

Additional observations from a re-analysis of the deposited data

Results flagged for a closer look

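A group of results moved in opposite directions in primary and immortalized cells, with libraries that did not overlap in either. They were picked for this pattern among the members, the named transport genes, Myc and Mlx. The share of all genes that meet it was not counted. In DKO against MlxKO alone, 60.9% of all genes did not overlap in primary and 54.4% in immortalized cells. For primary MycKO against WT it was 48.1%. Whether the 2 kinds of cells differ was not tested, and each table holds its own normalization. In DKO against MlxKO cells the Kpna2 sum differed by -0.74 on the log2 scale in primary and by 0.37 in immortalized cells, Kpnb1 by -0.44 and 0.09, and Ipo5 by -0.55 and 0.14. None of the 3 immortalized values passed the test by limma (adjusted p between 0.120 and 0.722), and scaled by library totals the immortalized value of Kpnb1 turned to -0.08, with the median of all genes at -0.16. In MycKO against WT cells Ranbp1 differed by -0.54 in primary and 0.47 in immortalized cells, and Rangap1 by -0.34 and 0.70, and all 4 values passed the test. Nup50 in DKO against MycKO cells differed by 0.0930 in primary and -0.35 in immortalized cells, of which the second passed (adjusted p = 0.0290, limma).

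The effect of Myc loss differed between immortalized cells with and without Mlx for 4 of the transport genes named by role, by the test of the interaction. These 4 were picked because they passed. They are a smaller share of the named transport genes than the share called among all genes, so the named genes did not stand out. The interaction on the log2 scale was -0.92 for Rcc1 (adjusted p = 0.0437, limma), -1.21 for Rangap1 (adjusted p = 0.00337, limma), -0.69 for Ranbp1 (adjusted p = 0.0156, limma) and 0.64 for Xpo1 (adjusted p = 0.0404, limma), with 47.4% of all genes called. Without WT replicate 3 the values were -1.27, -1.50, -0.84 and 0.47, and the one for Xpo1 no longer passed (adjusted p = 0.0504, limma).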

How the results depend on the processing

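No paired analysis was possible because the numbers in the column names could not be matched to the replicates as labelled. Apart from leaving out a library, 679 values of single members kept their direction where called and their side of the threshold, 10 gained a call and 7 lost it, and no called value reversed. With a library left out these numbers were 835, 14 and 15. Scaling by library totals moved the count of importin genes called from 2 to 4 in primary MycKO against WT, from 3 to 5 in primary DKO against MlxKO, and from 3 to 1 in immortalized MlxKO against WT. Under that scaling the median of all genes was -0.09, -0.12 and 0.16 in these contrasts, and relative to it Kpna1 and Kpna6, the added calls in DKO against MlxKO, differed by -0.08 and -0.11. That scaling also moved the share of called genes that were higher from 48.3% to 31.4% in primary MycKO against WT, 48.5% to 37.2% in DKO against WT, 47.3% to 32.4% in DKO against MlxKO and 42.2% to 53.8% in MlxKO against WT, and in immortalized cells from 49.0% to 69.8% in MlxKO against WT, 54.0% to 29.2% in DKO against MlxKO and 49.9% to 37.2% for the interaction.

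In primary DKO against MycKO the 1 call, Kpnb1, was lost without a filter and with only the groups compared (0 calls each). With only the groups compared, immortalized MlxKO against WT gave 1 importin call in place of 3, DKO against MlxKO 1 and DKO against MycKO 1 in place of 0, and all genes called numbered 906 in place of 2434 in DKO against WT and 6011 in place of 3879 in DKO against MlxKO. The interaction in immortalized cells gave 1 importin call by edgeR and 1 by DESeq2 in place of 0. The cause of these moves was not tested. With each library left out in turn, importin calls ranged from 0 to 1 in primary DKO against MycKO, and in immortalized cells from 0 to 1 in MycKO against WT, 0 to 5 in MlxKO against WT, 0 to 2 in DKO against WT, 0 to 1 in DKO against MlxKO, 0 to 1 in DKO against MycKO and 0 to 3 for the interaction. Genes called ranged from 627 to 2023 in primary MlxKO against WT, and in immortalized cells from 2884 to 6034 in MlxKO against WT, 1115 to 3249 in DKO against WT and 2352 to 5567 in DKO against MlxKO. With the longest transcript as length, the Kpna2 sum in WT was 102.4 CPM per kb in primary and 156.5 CPM per kb in immortalized cells, in place of 70.3 and 107.5. The Kpna2 share of the pair was the same from deposited CPM as from reads.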

Other observations

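After the split of Kpna2 and Gm10184 had been seen, all genes of both tables were searched for others like it. With 0.1 CPM added to each value, genes were counted whose MycKO libraries all lay more than 5-fold above, or more than 5-fold below, every library of the other 3 genotypes. Above, there were 2 in primary and 63 in immortalized cells, and below, 1 and 34. Kpna2 was the only gene above in both tables and Gm10184 the only gene below in both, and the same held at 10-fold. At 2-fold, 7 genes were above in both tables, Kpna2, Dner, Epas1, Id4, Sv2c, Syt13 and C130046K22Rik, and 6 were below in both, Gm10184, Adgrg2, Enpp2, Erg, Il1rn and Ogn. These genes were named after their values were seen, and the counts are a description with no test.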
